A study of Mus musculus with 18 samples.

Results

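The genes described here are 9 of the 27179 in the count table: Aire and Fezf2, which encode the transcriptional regulators that open the expression of tissue antigens in the thymus, and Chd4, Sirt1, Top1, Top2b, Prkdc, Parp1 and Cdk9, which encode proteins reported to work with them. They were chosen by symbol, and all 9 passed the filter on low counts. RNA-seq was done on thymic epithelial cells (TEC) sorted from wildtype (WT) and Kat7 knockout (KO) mice on the C57BL/6 background. KAT7 is a histone acetyltransferase of the MYST family. Each of 3 pools of WT mice (numbered 1 to 3) and 3 pools of KO mice (4 to 6) gave 1 library of cortical TEC (cTEC) and 1 each of the medullary TEC sorted as mTEChi and mTEClo, named for the amount of MHC class II they display, so 18 libraries made 6 groups of 3. The deleted part of Kat7, the cells in which it was deleted and the age of the mice are not named in the labels. 

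Libraries held 3554089 to 20054360 counted reads, the fewest in WT mTEChi (3554089 to 8445355), and the members had 132 to 10311 reads each. All 9 WT libraries held 38.6 to 83.4 CPM (counts per 1000000 counts of the scaled library total) of Kat7, and all 9 KO libraries held 0.765 to 4.16 CPM. The libraries labelled cTEC and mTEChi carried the markers of their labels: summed cTEC markers (7 genes) were 3512 to 5929 CPM in WT cTEC against 374 to 471 CPM in WT mTEChi, and mature mTEC markers (6 genes) 1407 to 1524 CPM in WT mTEChi against 446 to 624 CPM in WT cTEC. All 7 cTEC markers were lower in WT mTEClo than in WT cTEC in edgeR. Immature mTEC markers summed to 4808 to 5120 CPM in WT mTEClo and 3642 to 4007 CPM in WT cTEC, with 2 of 6 genes higher and 1 lower, and the sums of mature mTEC markers overlapped (468 to 507 and 446 to 624 CPM). WT cTEC replicate 3 stood apart from the other libraries of its group, with the lowest cTEC marker sum (3512 CPM).

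Medullary TEC display antigens of other organs to developing T cells, so that self-reactive cells are removed or diverted. AIRE acts in mature cells with high MHC class II. It does not bind 1 fixed DNA motif but works at genes with little active chromatin, where it is reported to act with topoisomerases and the DNA break response (TOP1, TOP2B, DNA-PKcs encoded by Prkdc, PARP1) and to release paused RNA polymerase II through P-TEFb, whose kinase is CDK9. SIRT1 is a deacetylase reported to remove acetyl groups from AIRE, and CHD4 is the ATPase of the NuRD chromatin remodelling complex, reported to act with FEZF2 and with AIRE. FEZF2 is a zinc finger protein that drives a set of tissue antigens partly separate from that of AIRE.

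Aire, Fezf2 and Sirt1 were the members with higher transcript levels in mTEChi than in both other subsets of either genotype, and the windows before their annotated start sites are shown to place that pattern beside the sequence. The windows are from RefSeq (GRCm38.p6), run 5′ to 3′ on the gene's own strand, and stop where an exon annotated by GENCODE begins. Capitals mark matches on either strand to GGGCGG (the GC box), to CCAAT, to the TATA box (TATAAA) or to the E-box (CACGTG). The genes lie at chr10:78030022-78043610 (Aire), chr10:63319005-63339035 (Sirt1) and chr14:12338992-12346803 (Fezf2). The Aire window is chr10:78043611-78043860, minus strand.
Aire: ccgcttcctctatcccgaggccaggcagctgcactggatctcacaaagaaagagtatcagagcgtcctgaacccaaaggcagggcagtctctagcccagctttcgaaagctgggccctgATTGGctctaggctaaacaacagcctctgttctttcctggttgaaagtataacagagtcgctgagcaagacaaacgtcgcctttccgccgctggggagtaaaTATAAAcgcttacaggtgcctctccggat
The Sirt1 window is chr10:63339051-63339285, minus strand.
Sirt1: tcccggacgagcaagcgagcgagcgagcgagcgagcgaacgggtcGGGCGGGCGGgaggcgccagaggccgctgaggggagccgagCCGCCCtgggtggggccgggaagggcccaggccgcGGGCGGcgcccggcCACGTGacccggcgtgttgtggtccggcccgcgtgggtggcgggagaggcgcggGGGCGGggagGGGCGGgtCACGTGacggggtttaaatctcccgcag
The Fezf2 window, chr14:12345960-12346115 on the minus strand, lies inside the gene's annotated span, before the start of the transcript that the table uses. It leaves out the part of the window next to that start, which an annotated exon overlaps.
Fezf2: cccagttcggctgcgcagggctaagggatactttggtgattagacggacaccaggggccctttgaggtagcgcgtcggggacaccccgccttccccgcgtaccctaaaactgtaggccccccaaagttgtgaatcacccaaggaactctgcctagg

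The 3 windows had little in common in these letters. The Aire window held 1 CCAAT and 1 TATAAA match and no GC box. The Sirt1 window held 6 GC boxes, of which 2 overlapped, and 2 E-boxes, with 36 CpG in 235 bases. The Fezf2 stretch of 156 bases held no match to any of the 4, and its full window of 250 bases held 1 GC box. Over the full 250 bases before each of 32851 RefSeq starts, 32.7% of windows held a GC box, 33.8% a CCAAT, 12.4% a TATAAA and 6.02% an E-box. In windows of that length Sirt1 had 39 CpG, more than 98.4% of all windows. Aire had 11 (more than 64.4%) and Fezf2 14 (more than 70.6%), where the median window had 6. The RefSeq table gave windows for Top1 (20 CpG), Top2b (15), Parp1 (16), Cdk9 (32) and both starts of Chd4 (12 and 23), and of the 9 members only Aire had a TATAAA match in its window, Prkdc having no window in the table. A match describes letters and is not a measured binding site.

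In WT mTEChi the 2 regulators and Sirt1 stood above the other members. Per kilobase of transcript, which allows genes to be compared, the level in WT mTEChi was 614 ± 39.2 CPM per kb for Aire (SD, n = 3), 247 ± 11.04 for Fezf2 and 80.4 ± 10.3 for Sirt1. The other 6 members followed at 22.6 ± 3.06 for Cdk9, 18.3 ± 1.67 for Top1, 16.4 ± 0.719 for Top2b, 9.80 ± 0.311 for Parp1, 6.93 ± 0.631 for Chd4 and 3.26 ± 0.300 for Prkdc. In WT cTEC the order was another one. Fezf2 led at 44.1 ± 7.51 CPM per kb, ahead of Top2b at 27.4 ± 2.23, Cdk9 at 26.9 ± 1.60 and Aire at 25.8 ± 12.5, while Sirt1 stood at 9.51 ± 1.30. The WT mTEClo libraries also had Fezf2 first, at 79.3 ± 3.96 CPM per kb, and Aire at 19.5 ± 9.77.

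**Figure D1:**
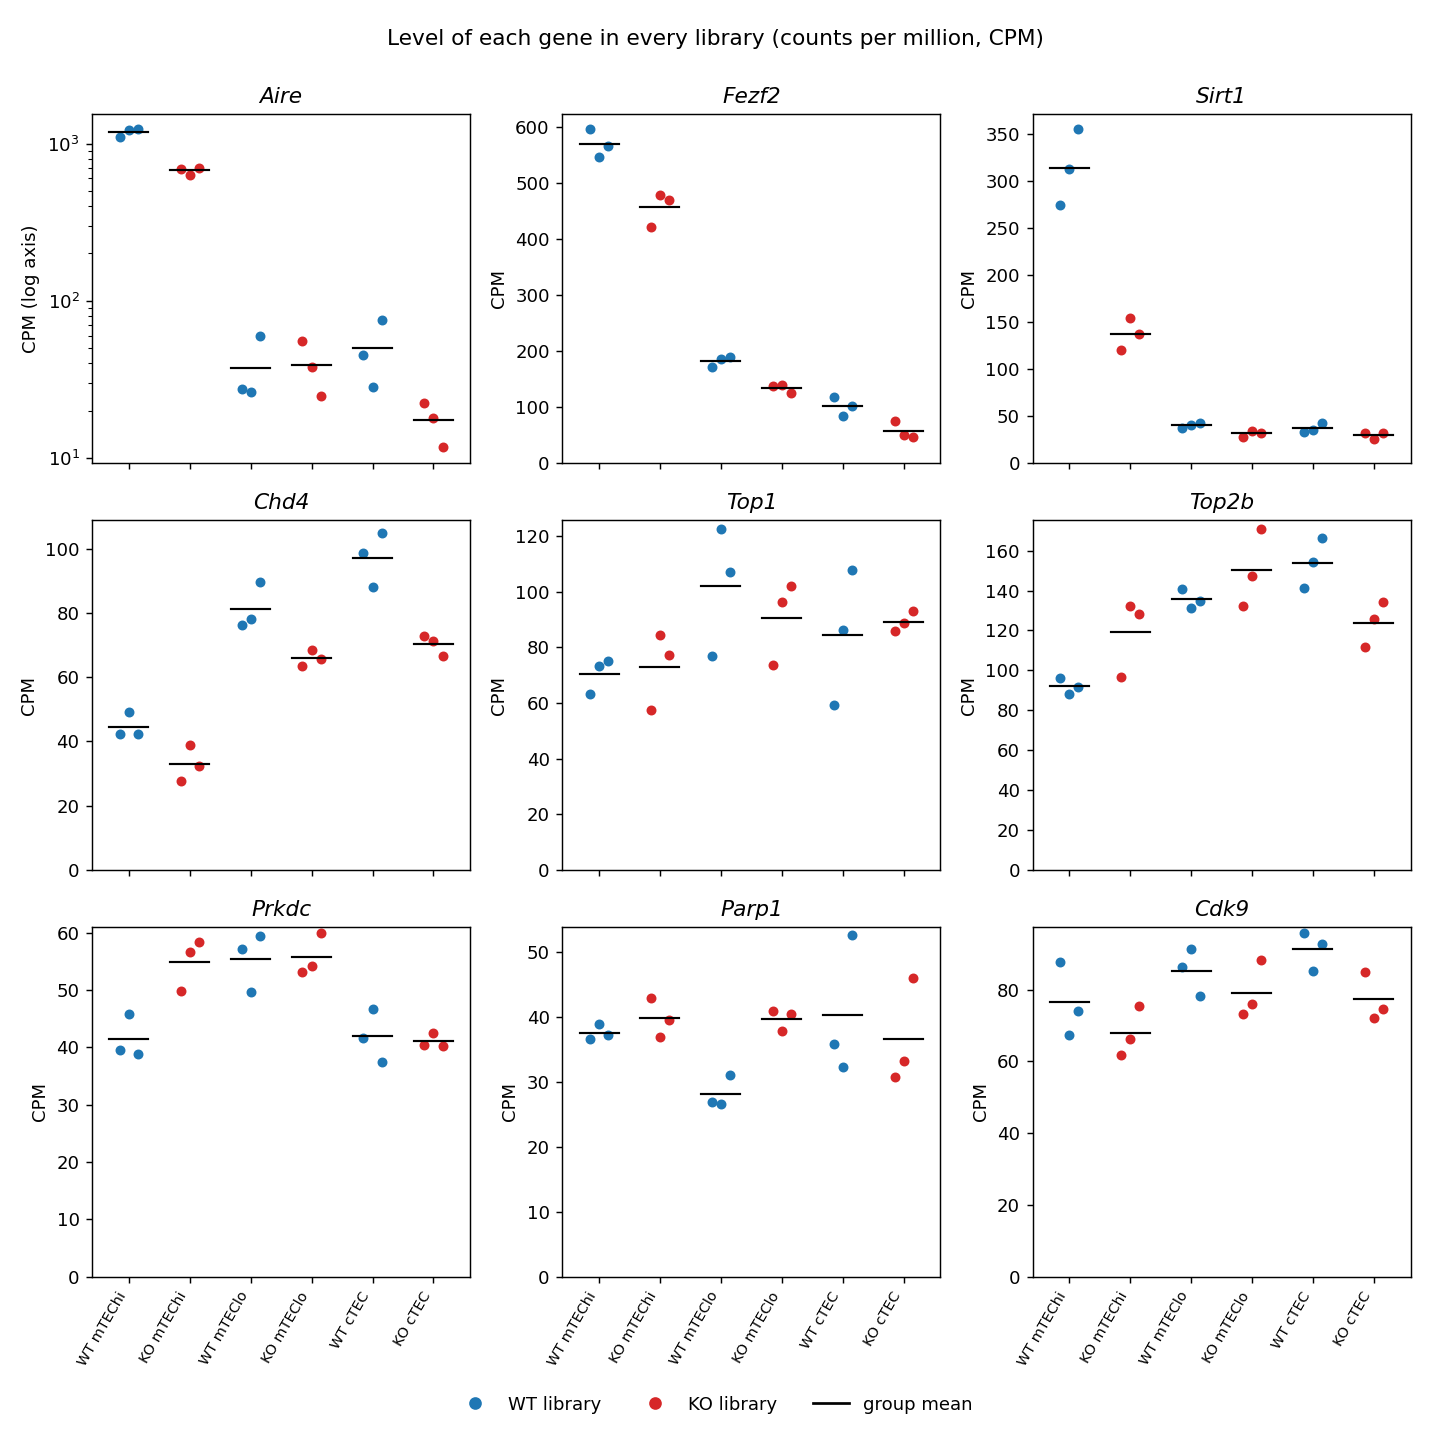
Level of the 9 genes in each of the 18 libraries (CPM, y axis; log axis for Aire only), by group (x axis), with WT in blue, KO in red and a bar at the mean of each group. The 3 KO mTEChi libraries lie below the 3 WT mTEChi libraries for Aire, Fezf2, Sirt1 and Chd4, and above them for Top2b and Prkdc.

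The comparison of subsets within WT mice asked how the members are distributed over the TEC populations. In WT mTEChi against WT mTEClo, 4 of the 9 members were higher and 4 lower, where 59.3% of all 19364 genes tested passed the same threshold (adjusted p below 0.05), 32.6% higher and 26.7% lower. Aire, the autoimmune regulator, measured 1096, 1225 and 1229 CPM in the 3 WT mTEChi libraries, 27.3, 26.2 and 59.3 CPM in WT mTEClo and 45.4, 28.3 and 75.8 CPM in WT cTEC. All mTEChi libraries lay far above the rest, and pool 3 was the highest in each subset. Aire was 31.8-fold higher in mTEChi than in mTEClo (log2 fold change 4.99, SE 0.38, adjusted p = 1.04e-09) and 23.7-fold higher than in cTEC (4.57, SE 0.36, adjusted p = 1.72e-09). The mTEClo and cTEC levels overlapped and did not pass the test (-0.42, 95% interval -1.12 to 0.28, adjusted p = 0.374). The kits do not mark strand, and Dnmt3l, which encodes a cofactor of DNA methyltransferases, overlaps the start of Aire by 1324 bases on the other strand. Reads from the overlap could therefore not be told apart by strand, and how the counting treated them is not given. Dnmt3l averaged 53.5 CPM in WT mTEChi and 23.9 CPM in KO mTEChi, 1.45 and 0.857 CPM in WT and KO mTEClo, and 1.45 and 0.257 CPM in WT and KO cTEC, far below Aire in each.

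Fezf2 was more widely distributed. It measured 596, 546 and 566 CPM in WT mTEChi, 172, 186 and 190 CPM in WT mTEClo and 119, 84.1 and 102 CPM in WT cTEC. The 3 groups did not overlap, in that order. Fezf2 was 3.12-fold higher in mTEChi than in mTEClo (log2 fold change 1.64, SE 0.15, adjusted p = 1.25e-08) and 1.80-fold higher in mTEClo than in cTEC (0.85, SE 0.15, adjusted p = 0.000256). For the latter pair of subsets, 2 of the 9 members were higher in mTEClo and 1 lower, against 27.4% of all genes tested (13% higher and 14.4% lower).

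Sirt1 shared the mTEChi pattern. Its level was 275, 313 and 356 CPM in WT mTEChi, 37.1, 40.5 and 43.1 CPM in WT mTEClo and 33.6, 35.0 and 43.0 CPM in WT cTEC. The mTEChi libraries stood apart, while the mTEClo and cTEC libraries overlapped (log2 fold change 0.11, 95% interval -0.18 to 0.40, adjusted p = 0.595). Sirt1 was 7.83-fold higher in mTEChi than in mTEClo (2.97, SE 0.14, adjusted p = 3.45e-12) and 8.45-fold higher than in cTEC (3.08, SE 0.14, adjusted p = 9.27e-13). Its family did not share this pattern. Of the 6 other sirtuins, none passed as higher in WT mTEChi than in mTEClo (edgeR), 4 were lower and their median was -0.63, beside a median of 0.08 over all genes tested. Sirt7, a nuclear deacylase, was lower in mTEChi (78.5 ± 7.11 against 144 ± 8.03 CPM, -0.87, SE 0.13, adjusted p = 8.6e-06), as was the mainly cytoplasmic Sirt2 (52.9 ± 1.93 against 73.5 ± 5.45 CPM, -0.47, SE 0.10, adjusted p = 0.000481) and Sirt3 of mitochondria (12.4 ± 1.85 against 23.0 ± 0.681 CPM, -0.89, SE 0.19, adjusted p = 0.000576).

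**Figure D2:**
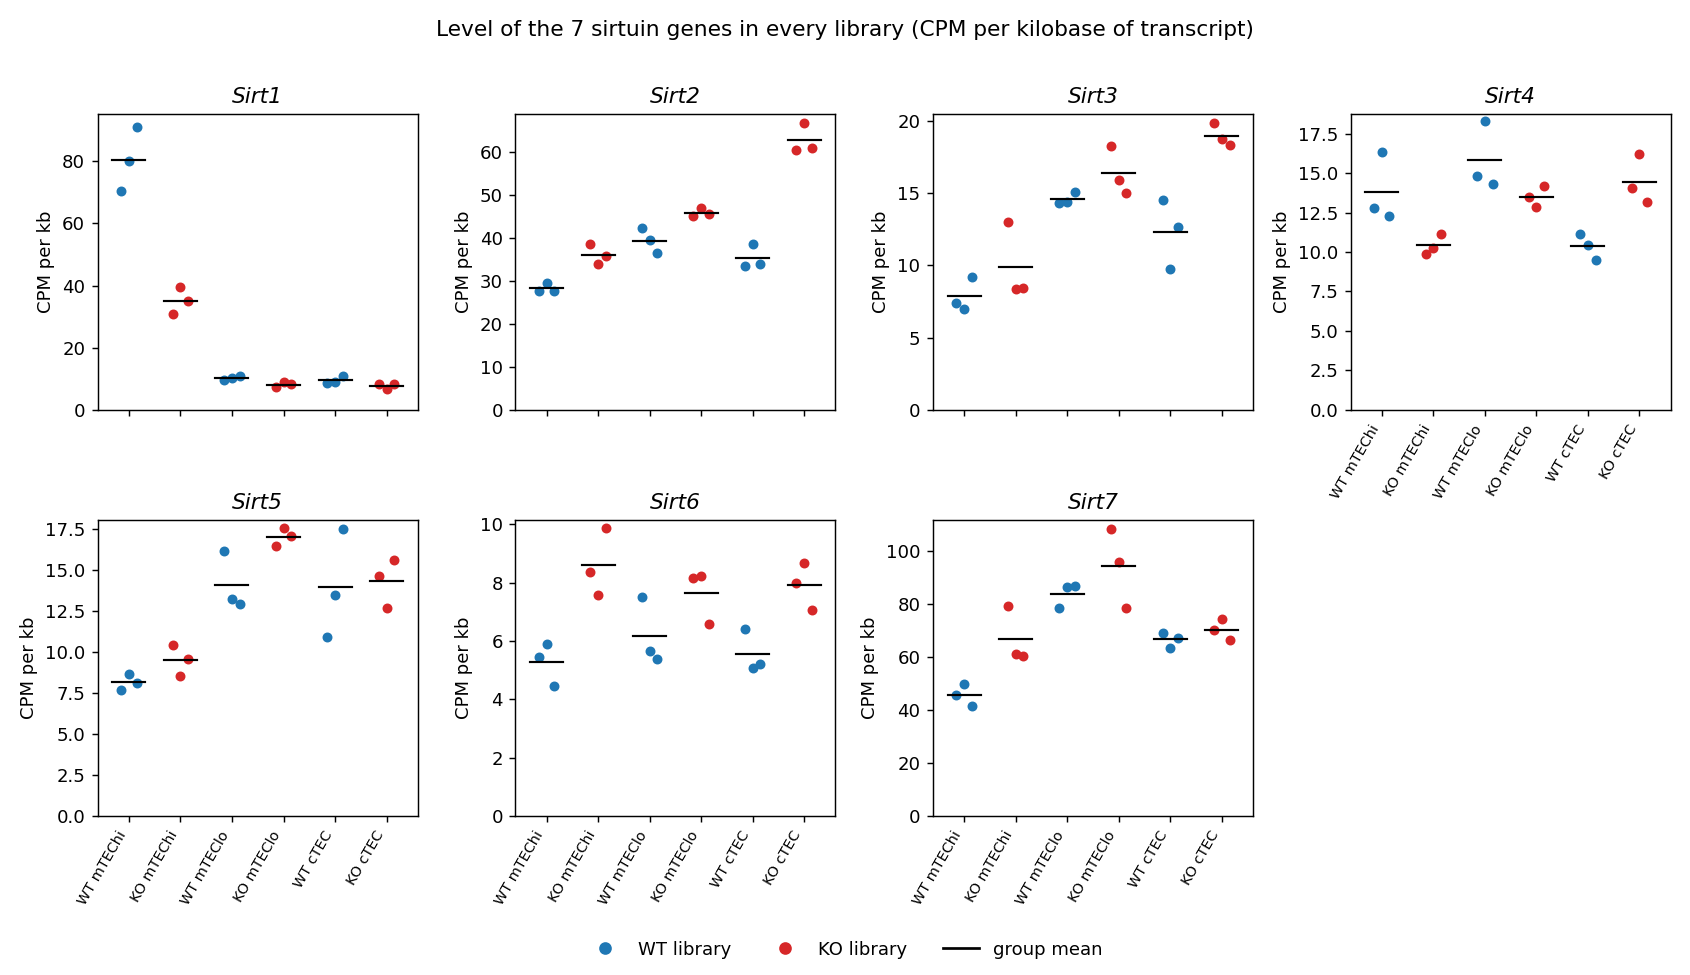
Level of the 7 sirtuin genes in each library (CPM per kilobase of transcript, y axis from 0) by group (x axis), WT in blue, KO in red, bars at group means. Sirt1 averages 80.4 CPM per kb in WT mTEChi and 7.70 to 10.3 in the 4 mTEClo and cTEC groups, while the other 6 genes average no more in WT mTEChi than in WT mTEClo.

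Chd4 (chr6:125095980-125130591) ran the other way. This ATPase of NuRD measured 42.4, 49.3 and 42.2 CPM in WT mTEChi, 76.1, 78.2 and 89.7 CPM in WT mTEClo and 98.6, 88.1 and 105 CPM in WT cTEC. All mTEChi libraries were below all others, and the mTEClo and cTEC libraries overlapped. Chd4 was lower in mTEChi than in mTEClo (log2 fold change -0.86, SE 0.12, adjusted p = 6.91e-06) and than in cTEC (-1.12, SE 0.12, adjusted p = 1.57e-07). Between WT mTEChi and WT cTEC, 3 members were higher and 2 lower in mTEChi, against 64.4% of all genes tested (35.9% higher and 28.5% lower).

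Among the genes of DNA breaks and topology, Top2b (chr14:16365206-16430787), which relaxes DNA through transient double-strand breaks, was also lowest in WT mTEChi. It measured 96.4, 88.3 and 91.9 CPM there, 141, 131 and 135 CPM in WT mTEClo and 141, 154 and 167 CPM in WT cTEC. The mTEChi libraries did not overlap with either other subset, and Top2b was lower by -0.56 (log2, SE 0.13, adjusted p = 0.000752) against mTEClo and by -0.74 (SE 0.13, adjusted p = 3.29e-05) against cTEC. Prkdc (chr16:15637444-15842239), the catalytic kinase subunit of DNA-PK, was highest in WT mTEClo, at 57.2, 49.6 and 59.3 CPM against 39.6, 45.7 and 38.8 CPM in mTEChi and 41.6, 46.7 and 37.5 CPM in cTEC. It was lower in mTEChi than in mTEClo (-0.42, SE 0.12, adjusted p = 0.00541), and higher in mTEClo than in cTEC (0.40, SE 0.12, adjusted p = 0.0141). The second of these calls was lost without WT mTEClo replicate 3 (adjusted p = 0.0647) or WT cTEC replicate 3 (0.0610), and with only the compared groups in the fit (0.0807).

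Parp1 (chr1:180568891-180600999), which builds poly(ADP-ribose) at breaks, showed the reverse of Prkdc, with its lowest values in WT mTEClo. Its level there was 26.9, 26.6 and 31.1 CPM, against 36.6, 38.9 and 37.2 CPM in WT mTEChi and 35.8, 32.4 and 52.6 CPM in WT cTEC. The mTEClo libraries lay below all others. Parp1 was higher in mTEChi than in mTEClo (log2 fold change 0.42, SE 0.17, adjusted p = 0.0455), a call lost without any of WT mTEChi replicates 1 (0.0618), 2 (0.0985) and 3 (0.0701) or WT mTEClo replicates 1 (0.123) and 2 (0.110), and with no filter on low counts (0.101). It was lower in mTEClo than in cTEC (-0.52, SE 0.17, adjusted p = 0.0276), which was lost without WT mTEClo replicate 1 (0.0829) or 2 (0.0871) or WT cTEC replicate 3 (-0.28, 0.188), and with only the compared groups in the fit (0.0922). Top1 (chr2:160645897-160722764), which relaxes DNA through single-strand breaks, was 63.1, 73.3 and 75.0 CPM in WT mTEChi, 76.9, 122 and 107 CPM in WT mTEClo and 59.3, 86.4 and 108 CPM in WT cTEC. Its mTEClo and cTEC libraries spread widely. Top1 was lower in mTEChi than in mTEClo (-0.53, SE 0.20, adjusted p = 0.0274), and this call was lost without WT mTEChi replicate 1 (0.0994) or 2 (0.0560), or without WT mTEClo replicate 2 (0.155) or 3 (0.0652), and with RLE scaling (0.0588) and DESeq2 (0.0526).

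Cdk9 (chr2:32705782-32712784), the kinase of P-TEFb, differed little between the subsets. It measured 87.8, 67.5 and 74.0 CPM in WT mTEChi, 86.2, 91.4 and 78.2 CPM in WT mTEClo and 95.8, 85.3 and 92.8 CPM in WT cTEC. Each pair of groups overlapped. None of the 3 pairs of WT subsets passed for Cdk9, the nearest being mTEChi against cTEC (log2 fold change -0.26, 95% interval -0.51 to -0.01, adjusted p = 0.0600). That pair passed in 5 of 12 alternatives (adjusted p 0.00985 to 0.274), the mouse pool as a block among them (0.0491).

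**Figure D3:**
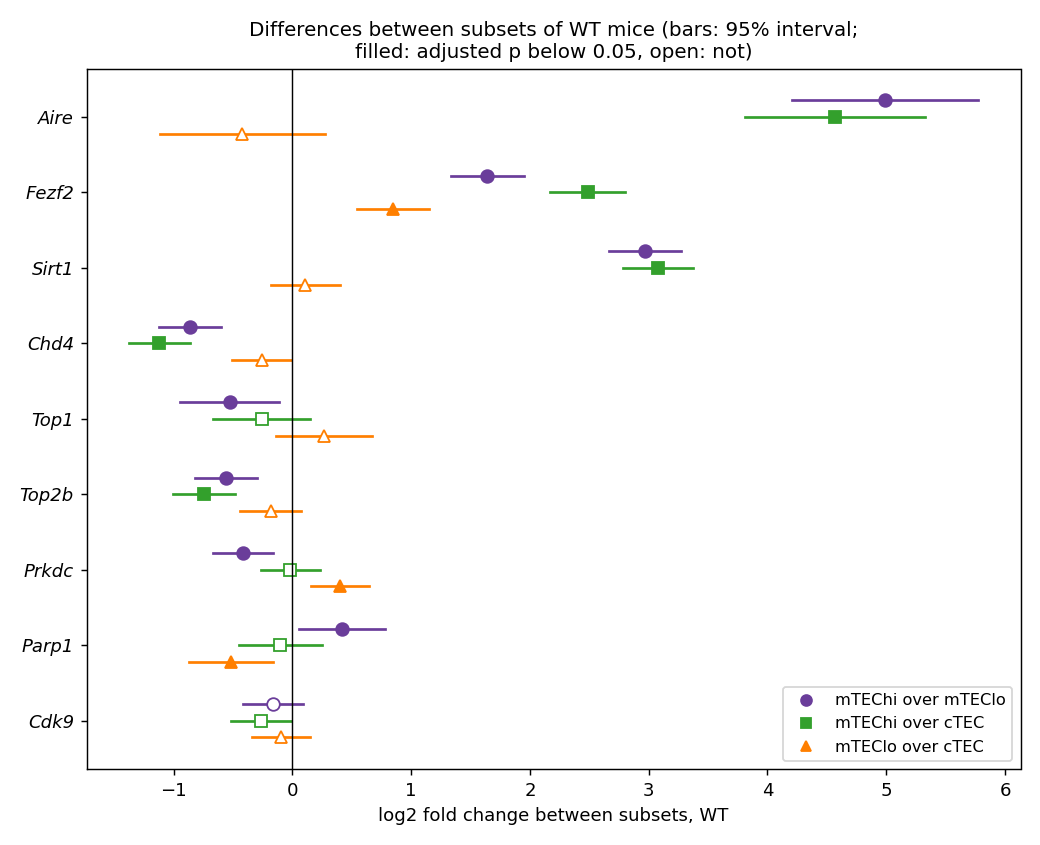
Differences between the WT subsets for the 9 genes (log2 fold change, x axis) for mTEChi over mTEClo (circles), mTEChi over cTEC (squares) and mTEClo over cTEC (triangles), with 95% intervals as bars, filled symbols for adjusted p below 0.05 and open symbols otherwise. Aire, Fezf2 and Sirt1 lie between 1.64 and 4.99 for mTEChi over mTEClo, and the other 6 genes lie between -0.86 and 0.42.

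In most of the wider gene sets more genes were lower than higher in WT mTEChi, as Chd4 and Top2b were. Of 23 other reported partners of AIRE, 5 were higher and 15 lower in WT mTEChi than in mTEClo (median log2 fold change -0.52), and of 23 genes of polymerase pausing and release 4 were higher and 12 lower (median -0.34). Of 4 other topoisomerases 1 was higher and 3 lower (-0.60), of 13 other NuRD subunits 2 were higher and 6 lower (-0.31), and of 14 other genes of the DNA break response 3 were higher and 4 lower (-0.13). All genes tested had a median of 0.08, with 32.6% higher and 26.7% lower. Of 15 genes upstream of Aire, such as receptors and NF-kappaB factors, 9 were higher and 5 lower (median 0.93).

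The comparison of KO with WT in mTEChi asked what happened to the members where Aire is most abundant. Of the 9 members, 3 fell (Aire, Chd4 and Sirt1), 2 rose (Top2b and Prkdc) and 4 did not pass, where 36.4% of all genes tested passed, 19.3% lower and 17.1% higher. The KO and WT libraries did not overlap for 4 members that were lower and 2 that were higher in KO, against 31.4% and 24.5% of all genes. Over all genes the median log2 fold change was -0.11, and over the members it was -0.17. In bulk RNA of a sorted population, fewer cells of a type and less RNA per cell cannot be told apart.

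Aire measured 693, 633 and 703 CPM in the KO mTEChi libraries, against 1096, 1225 and 1229 CPM in WT. Every KO library was below every WT library. The log2 fold change was -0.81 (SE 0.31, 95% interval -1.46 to -0.15), and its adjusted p of 0.04997 lay just under the threshold. Leaving out any 1 of the 6 libraries ended the call (adjusted p 0.0780 without WT replicate 1, 0.113 without 2 and 0.119 without 3, and 0.103, 0.129 and 0.101 without KO replicates 4, 5 and 6). DESeq2 did not call it either (-0.85, adjusted p = 0.0927). With only the 6 mTEChi libraries in the fit, whose spread is then estimated without the other subsets, the difference was -0.79 (SE 0.10, adjusted p = 4.91e-05).

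Fezf2 measured 421, 478 and 470 CPM in KO mTEChi against 596, 546 and 566 CPM in WT. The KO libraries were again all lower, but the difference did not pass (log2 fold change -0.32, SE 0.14, 95% interval -0.62 to -0.02, adjusted p = 0.0879). It passed in DESeq2 (-0.37, adjusted p = 0.0452) and with only the mTEChi libraries in the fit (-0.30, 0.0281). As a measure within a library, added after the values were seen, Aire reads per Fezf2 read were 1.84, 2.24 and 2.17 in WT mTEChi and 1.65, 1.32 and 1.50 in KO. The KO values were all lower, and the two-sided exact permutation p was 0.1, the smallest that 3 against 3 libraries allow (0.3 after adjustment over the 3 subsets). In mTEClo the ratio was 0.158, 0.141 and 0.313 in WT and 0.402, 0.272 and 0.198 in KO (exact permutation p = 0.3). In cTEC it was 0.383, 0.336 and 0.744 in WT and 0.300, 0.351 and 0.250 in KO (exact permutation p = 0.2). Both of these pairs of groups overlapped.

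**Figure D4:**
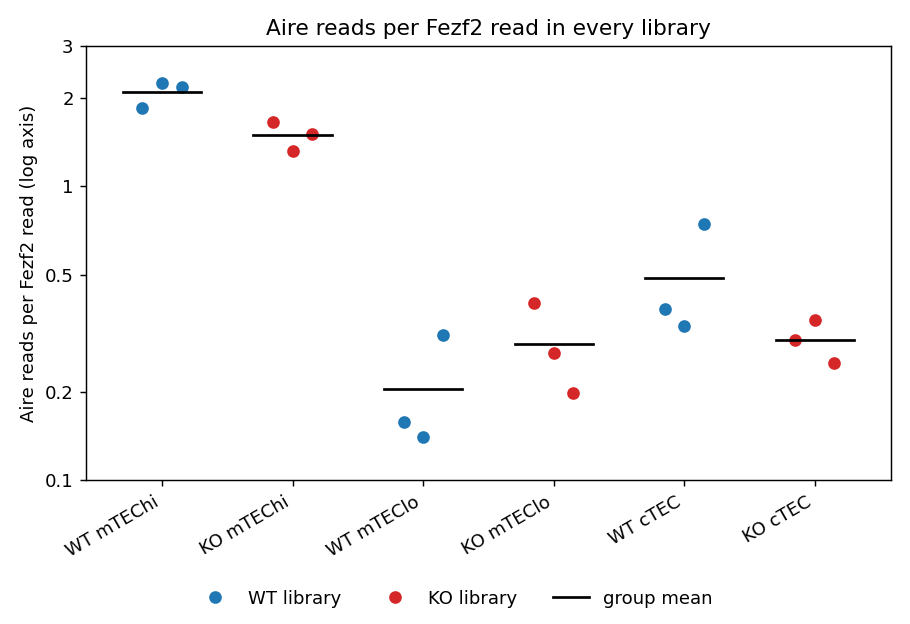
Aire reads per Fezf2 read in each library (y axis, log scale) by group (x axis), WT in blue, KO in red, bars at group means. In mTEChi the WT libraries lie at 1.84 to 2.24 and the KO libraries at 1.32 to 1.65, while the WT and KO ranges overlap in mTEClo and cTEC.

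Sirt1 had the largest fall of the 9 members in mTEChi. It measured 120, 155 and 137 CPM in KO against 275, 313 and 356 CPM in WT, with no overlap. The log2 fold change was -1.20 (SE 0.13, adjusted p = 2.05e-06), a level 0.437 times that of WT. In KO mice Sirt1 was still 4.33-fold higher in mTEChi than in mTEClo (log2 2.12, SE 0.14, adjusted p = 3.53e-10), where 45.3% of all genes passed for that pair (23% higher and 22.4% lower) and 3 members were higher and 2 lower. One of the lower members there was Top2b (-0.34, adjusted p = 0.0306), a call lost without KO mTEChi replicate 4 (0.208) or KO mTEClo replicate 5 (0.0546) or 6 (0.174), with RLE scaling (0.0989), with DESeq2 (0.0885) and with only the compared groups in the fit (0.160). Of the 6 other sirtuins, 3 rose and 1 fell in KO mTEChi (median 0.33). Sirt7 went from 78.5 ± 7.11 to 115 ± 18.5 CPM (0.55, SE 0.13, adjusted p = 0.00262) and Sirt2 from 52.9 ± 1.93 to 67.3 ± 4.43 CPM (0.34, SE 0.10, adjusted p = 0.0122). Sirt6 rose by 0.70 (adjusted p = 0.00804, but 0.0508 without WT replicate 3). Sirt4 fell by 0.41 (adjusted p = 0.0388), a call kept only without WT replicate 3 among the single libraries left out (0.0536 to 0.267 in the other 5).

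Chd4 measured 27.9, 38.9 and 32.2 CPM in KO mTEChi against 42.4, 49.3 and 42.2 CPM in WT. All KO libraries were lower, though KO pool 5 came close to WT. Its difference was -0.43 (log2, SE 0.13, adjusted p = 0.0117), and the call was lost without WT replicate 2 (adjusted p = 0.0818) or KO replicate 4 (0.0841). Of the 13 other NuRD subunits 3 rose and 1 fell, with a median of 0.10. The zinc finger subunit Gatad2a rose from 52.9 to 92.9 CPM (0.82, SE 0.13, adjusted p = 0.000121) and the methyl-CpG binding subunit Mbd2 from 34.1 to 53.9 CPM (0.69, SE 0.18, adjusted p = 0.00670).

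The 2 members that rose belong to the DNA break and topology group. Top2b measured 96.6, 133 and 128 CPM in KO mTEChi against 96.4, 88.3 and 91.9 CPM in WT, so KO pool 4 only just cleared WT pool 1. The difference was 0.37 (log2, SE 0.13, adjusted p = 0.0257), and the call was lost without WT replicate 2 (0.0733) or 3 (0.0623) or KO replicate 5 (0.0943) or 6 (0.0768). Prkdc measured 49.7, 56.6 and 58.3 CPM in KO against 39.6, 45.7 and 38.8 CPM in WT, without overlap. The difference was 0.40 (log2, SE 0.12, adjusted p = 0.0129), and the call was lost without WT replicate 3 (0.0578). Of 14 other break response genes 2 rose and none passed as lower in edgeR (median 0.09), against 17.1% and 19.3% of all genes. Those 2, Lig3 and Xrcc6, kept their calls in only 3 and 4 of 11 alternatives (adjusted p 0.0261 to 0.117 and 0.0175 to 0.133). Of 4 other topoisomerases 1 fell (median 0.11). In KO mice Prkdc differed between mTEChi and mTEClo by -0.02 (95% interval -0.26 to 0.22, adjusted p = 0.889).

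Top1 (57.4, 84.3 and 77.3 CPM in KO mTEChi), Parp1 (42.9, 37.0 and 39.6 CPM) and Cdk9 (61.9, 66.2 and 75.5 CPM) overlapped with their WT libraries. Their log2 fold changes were 0.05 (95% interval -0.37 to 0.46), 0.08 (-0.28 to 0.44) and -0.17 (-0.42 to 0.09), with adjusted p-values of 0.869, 0.729 and 0.298. While Cdk9 did not pass, other genes of pause release did. Of 23, 9 rose and 2 fell, with a median of 0.05. Ccnt1, the cyclin partner of CDK9, rose from 31.3 to 49.4 CPM (0.66 on the log2 scale, SE 0.13, adjusted p = 0.000554), the elongation factor gene Ell from 25.5 to 40.1 CPM (0.67, SE 0.15, adjusted p = 0.00250) and Nelfcd of the pausing complex NELF from 41.9 to 71.2 CPM (0.77, SE 0.16, adjusted p = 0.00126). Of the 23 other AIRE partners, a list that shares genes with that one, Ccnt1 and Ccnt2 among them, 8 rose and 2 fell (median 0.11). The mismatch repair gene Msh6 went from 34.2 to 59.9 CPM (0.81, SE 0.13, adjusted p = 0.000122), and Pias1, an E3 SUMO ligase, from 71.6 to 104 CPM (0.54, SE 0.11, adjusted p = 0.000886).

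Of 15 genes upstream of Aire, 3 rose and 2 fell in KO mTEChi (median -0.06). Of all genes tested, 17.1% rose and 19.3% fell. Cd40, a receptor that promotes mTEC maturation, fell from 464 to 324 CPM (-0.52 on the log2 scale, SE 0.15, adjusted p = 0.00910), and Ltbr, the lymphotoxin beta receptor, rose from 43.9 to 66.0 CPM (0.60, SE 0.12, adjusted p = 0.000588). Of 8 tested antigens reported to depend on AIRE 7 fell, and of 9 reported to depend on FEZF2 5 fell and 2 rose. These antigen lists were drawn up with earlier results of these data known and are no independent evidence. Other markers moved with genotype in these libraries. The summed level of 6 immature mTEC markers was 817 to 958 CPM in WT mTEChi and 1779 to 2108 CPM in KO, that of 6 tuft cell markers 199 to 292 and 647 to 748 CPM, and that of 7 cTEC markers 374 to 471 and 747 to 886 CPM. Mature mTEC markers (6 genes, of which Cd40 and Tnfrsf11a are also in the upstream list) summed to 1407 to 1524 CPM in WT and 1201 to 1259 CPM in KO, and proliferation markers (6 genes, Top2a among them) to 344 to 418 and 216 to 288 CPM. Macrophage and dendritic markers (10 genes) summed to 1491 to 1550 CPM in WT and 801 to 952 CPM in KO, most of it Lyz2 (1447 and 818 CPM), and fibroblast and mural markers (7 genes) to 268 to 284 and 525 to 608 CPM. Of these 7 genes 2 rose and 2 fell (median log2 fold change -0.51), and Dcn averaged 67.8 CPM in WT and 237 CPM in KO. TEC markers (6 genes) summed to 5488 to 5892 CPM in WT mTEChi and 8037 to 9868 CPM in KO, and endothelial markers (5 genes) to 31.05 to 36.27 and 64.37 to 70.63 CPM. No gene of the marker lists named here was at 0 in either group, and their part in the differences of the members was not tested.

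**Figure D5:**
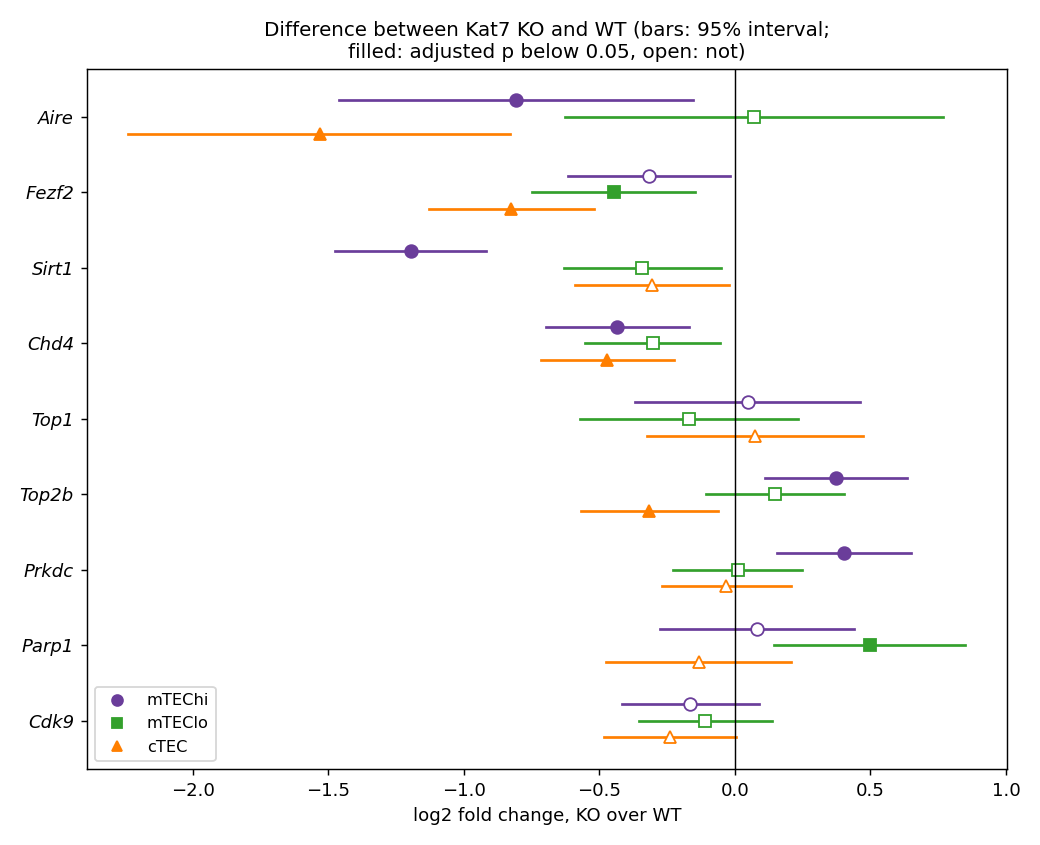
Difference between KO and WT for the 9 genes in mTEChi (circles), mTEClo (squares) and cTEC (triangles), as log2 fold change (x axis) with 95% intervals as bars, filled for adjusted p below 0.05 and open otherwise. Sirt1 lies at -1.20 in mTEChi and at -0.34 and -0.31 in the other subsets, and Top2b lies at 0.37 in mTEChi and -0.32 in cTEC.

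In mTEClo, Fezf2 fell and Parp1 rose in KO, which is 2 of 9 members where 34.7% of all genes tested passed. Libraries did not overlap for 3 members lower and 1 higher in KO, against 22.5% and 26.8% of all genes. Fezf2 measured 137, 139 and 125 CPM in KO against 172, 186 and 190 CPM in WT, without overlap. Its log2 fold change was -0.45 (SE 0.14, adjusted p = 0.0209), and the call was lost without WT replicate 2 (0.0703) or 3 (0.0685) or KO replicate 6 (0.0825). Parp1 measured 40.9, 37.8 and 40.4 CPM in KO against 26.9, 26.6 and 31.1 CPM in WT. All KO libraries were higher (0.50, SE 0.17, adjusted p = 0.0272), and the call was lost without WT replicate 1 (0.0765) or 2 (0.0805) or KO replicate 4 (0.0685) or 6 (0.0682).

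Aire in mTEClo overlapped between genotypes, at 55.1, 38.0 and 24.8 CPM in KO against 27.3, 26.2 and 59.3 CPM in WT. The log2 fold change was 0.07, with a wide 95% interval of -0.63 to 0.77 (adjusted p = 0.897). Chd4 (63.5, 68.4 and 65.6 CPM in KO against 76.1, 78.2 and 89.7 CPM in WT) and Sirt1 (28.3, 34.6 and 32.2 against 37.1, 40.5 and 43.1 CPM) did not overlap between genotypes but missed the threshold. Their log2 fold changes were -0.30 (95% interval -0.55 to -0.06, adjusted p = 0.0534) and -0.34 (-0.63 to -0.05, adjusted p = 0.0638), and both passed with RLE scaling (0.0247 and 0.0320), with DESeq2 (0.0126 and 0.0231) and with only the mTEClo libraries in the fit (0.0152 and 0.0195). The remaining 4 members overlapped, Top1 at 73.6 to 102 CPM in KO, Top2b at 133 to 171, Prkdc at 53.1 to 59.9 and Cdk9 at 73.1 to 88.2 CPM.

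Of the lists, genes upstream of Aire leaned down in KO mTEClo, with 8 of 15 lower and 1 higher (median log2 fold change -0.36, beside 0.01 over all genes, of which 15.8% were lower and 18.9% higher). Ctcf, the insulator protein, fell from 132 to 88.1 CPM (-0.58, SE 0.13, adjusted p = 0.00190) and Nfkb1, a subunit of NF-kappaB, from 114 to 83.8 CPM (-0.45, SE 0.11, adjusted p = 0.00397). Of 23 other AIRE partners 4 rose and 5 fell, among the latter the RNA helicase gene Ddx17 (237 to 160 CPM, -0.56, SE 0.14, adjusted p = 0.00284). Of 23 pause release genes 3 rose and 5 fell, with Hexim1, an inhibitor of P-TEFb, lower (32 to 18.2 CPM, -0.81, SE 0.18, adjusted p = 0.00143) and the elongation factor gene Ell2 higher (44.0 to 64.0 CPM, 0.54, SE 0.11, adjusted p = 0.000463). Of 13 other NuRD subunits 2 rose and 1 fell. That one was Chd3, which encodes the alternative ATPase to CHD4 (36.7 to 21.9 CPM, -0.74, SE 0.17, adjusted p = 0.00182). None of 6 other sirtuins passed in edgeR. Tuft cell markers summed to 1031 to 1509 CPM in WT mTEClo and 2355 to 2593 CPM in KO, immature mTEC markers to 4808 to 5120 and 3378 to 3779 CPM, and mature mTEC markers to 468 to 507 and 349 to 416 CPM, where 3 genes fell and 2 rose (median log2 fold change 0.04). Post-Aire keratinocyte-type markers (6 genes) summed to 296 to 360 CPM in WT and 574 to 679 CPM in KO (3 rose and 1 fell), and endothelial markers (5 genes) to 20.5 to 28.2 and 53.2 to 73.6 CPM. Of 7 cTEC markers 6 rose (median 1.32), while their sum overlapped between genotypes (1527 to 1966 and 1760 to 1995 CPM). Reads of the ribosomal RNA gene Rn45s took 0.974 to 1.23% of WT and 0.307 to 0.420% of KO mTEClo libraries. The part of these in the members' differences was not tested.

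In cTEC, 4 of the 9 members fell and none passed as higher in edgeR, where 49% of all genes tested passed, 26.7% lower and 22.3% higher. Libraries did not overlap for 6 members, all lower in KO, against 25.5% of all genes lower and 25.5% higher. Aire measured 22.4, 17.9 and 11.7 CPM in KO against 45.4, 28.3 and 75.8 CPM in WT. The groups did not overlap, and WT pool 3 was the highest. The log2 fold change was -1.53 (SE 0.34, adjusted p = 0.000894), and -1.09 (adjusted p = 0.00721) without WT replicate 3. Fezf2 measured 74.6, 50.9 and 46.6 CPM in KO against 119, 84.1 and 102 CPM in WT, again without overlap, and fell by 0.82 (SE 0.15, adjusted p = 0.000112).

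In cTEC, the sums of mature mTEC, tuft cell and immature mTEC markers were lower in KO, as both regulators were. Those of post-Aire keratinocyte-type markers (6 genes) overlapped, at 252 to 471 CPM in WT and 308 to 521 CPM in KO. The summed level of mature mTEC markers was 446 to 624 CPM in WT cTEC and 261 to 308 CPM in KO, that of tuft cell markers 622 to 1228 and 130 to 157 CPM, and that of immature mTEC markers 3642 to 4007 and 2616 to 3004 CPM. The chemokine gene Ccl21a of immature mTEC averaged 747 CPM in WT and 248 CPM in KO cTEC. Markers of cTEC ran from 3512 to 5929 CPM in WT, with pool 3 the lowest, and from 7454 to 10370 CPM in KO, and thymocyte markers from 47.2 to 121 and 230 to 374 CPM. Fibroblast and mural markers summed to 950 to 1136 CPM in WT and 2359 to 2504 CPM in KO, most of it Dcn (611 and 2053 CPM), while 5 of the 7 genes fell and 2 rose (median log2 fold change -1.43). Lower in KO were the sums of macrophage and dendritic markers (127 to 210 CPM in WT and 31.0 to 40.3 CPM in KO, with 4 of 8 tested genes lower), B cell markers (10.4 to 21.4 and 2.26 to 4.66 CPM, with 3 of 6 genes lower and 3 at 0 in KO) and endothelial markers (5 genes, 22.7 to 39.9 and 7.77 to 8.73 CPM). No gene of the other lists named here was at 0 in either group. The part of medullary transcripts in the fall of Aire and Fezf2 was not tested.

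Chd4 fell in cTEC too, from 98.6, 88.1 and 105 CPM in WT to 72.8, 71.2 and 66.7 CPM in KO, without overlap (log2 fold change -0.47, SE 0.12, adjusted p = 0.00250). Top2b fell from 141, 154 and 167 CPM to 112, 126 and 134 CPM. Those groups did not overlap, but the call (-0.32, SE 0.12, adjusted p = 0.0378) was lost without WT replicate 2 (0.0669) or 3 (0.122) or KO replicate 4 (0.135) or 5 (0.0759).

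Sirt1 (32.5, 25.6 and 32.2 CPM in KO) and Cdk9 (85.0, 72.2 and 74.7 CPM in KO) lay below all their WT libraries but did not pass. Their log2 fold changes were -0.31 (95% interval -0.59 to -0.02, adjusted p = 0.0691) and -0.24 (-0.48 to 0.00, adjusted p = 0.0955). With RLE scaling both passed (0.0258 and 0.0353), as they did with library totals alone (0.0151 and 0.0179) and with DESeq2 (0.0191 and 0.0227). Top1 (85.8 to 92.9 CPM in KO), Prkdc (40.3 to 42.4 CPM) and Parp1 (30.8 to 46.0 CPM) overlapped with WT, with adjusted p-values of 0.779, 0.847 and 0.519.

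The lists around these members moved both ways in KO cTEC. Of 13 other NuRD subunits 5 rose and 3 fell (median log2 fold change 0.25, beside -0.02 over all genes). Mta2, which helps to assemble NuRD, fell from 186 to 62.3 CPM (-1.57, SE 0.20, adjusted p = 3.06e-06) and Chd3 from 51.1 to 29.7 CPM (-0.79, SE 0.16, adjusted p = 0.000484), while the histone chaperones Rbbp4 (139 to 304 CPM, 1.13, SE 0.14, adjusted p = 1.37e-06) and Rbbp7 (324 to 603 CPM, 0.90, SE 0.11, adjusted p = 2.32e-06) rose. Of 23 pause release genes 5 rose and 4 fell, among the latter Supt5, a subunit of the elongation factor DSIF (192 to 116 CPM, -0.73, SE 0.11, adjusted p = 2.51e-05). Of 6 other sirtuins 4 rose (median 0.50), led by Sirt2 from 66.0 ± 5.35 to 117 ± 6.65 CPM (0.83, SE 0.10, adjusted p = 8.1e-07) and Sirt3 from 19.4 ± 3.83 to 29.9 ± 1.22 CPM (0.63, SE 0.17, adjusted p = 0.00568). The calls of the other two, Sirt4 (0.48, adjusted p = 0.00889) and Sirt6 (0.51, adjusted p = 0.0228), were lost without KO replicate 5 (0.0560 and 0.0903), and that of Sirt6 also without KO replicate 4 (0.0576) or WT replicate 2 (0.0705) or 3 (0.0570). Of 15 genes upstream of Aire 9 fell and 2 rose (median -0.38). Tnfrsf11a, which encodes the receptor RANK that drives mTEC maturation, fell from 140 to 62.1 CPM (-1.18, SE 0.11, adjusted p = 7.15e-08), and Nfkb1 from 206 to 132 CPM (-0.64, SE 0.11, adjusted p = 8.15e-05).

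Whether loss of Kat7 acted differently in the subsets was tested on the difference itself. Between mTEChi and mTEClo, 1 of 9 members passed, against 13.5% of all genes tested. That was Sirt1, whose KO effect was more negative in mTEChi by 0.85 on the log2 scale (-0.85, SE 0.19, adjusted p = 0.00488). Between mTEChi and cTEC 2 passed, against 31.5%. They were Sirt1 (-0.89, SE 0.19, adjusted p = 0.00134) and Top2b, with an effect of 0.37 in mTEChi and -0.32 in cTEC (difference 0.69, SE 0.17, adjusted p = 0.00521). Prkdc just missed there (0.435, 95% interval 0.09 to 0.779, adjusted p = 0.0506) and passed in 8 of 18 alternatives (adjusted p 0.0187 to 0.111). Between mTEClo and cTEC 1 passed, against 26% of all genes. It was Aire, with 0.07 in mTEClo and -1.53 in cTEC (difference 1.60, SE 0.47, adjusted p = 0.0167), and this was lost without KO mTEClo replicate 4 (1.28, adjusted p = 0.0597). Without WT cTEC replicate 3 it was 1.16 (adjusted p = 0.0456). For the same pair of subsets Parp1 (0.632, adjusted p = 0.0532) and Top2b (0.462, 0.0536) just missed. Each passed in 8 of 18 alternatives (adjusted p 0.0121 to 0.16 for Parp1 and 0.0145 to 0.161 for Top2b). The effects on Aire in mTEChi and mTEClo differed by -0.88, which did not pass (95% interval -1.83 to 0.08, adjusted p = 0.228). Fezf2 did not pass between any pair of subsets in the main fit. Between mTEChi and cTEC its difference (0.506, adjusted p = 0.0647) passed in 7 of 18 alternatives (adjusted p 0.00244 to 0.169). With the mouse pool as a block, Fezf2 passed between mTEChi and cTEC (0.52, adjusted p = 0.0457), and Top2b (0.46, 0.0155) and Parp1 (0.62, 0.0328) passed between mTEClo and cTEC, which made 3 of 9 there.

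The order of the 6 groups was read from these tests, which cover neighbours of the same genotype or subset only. Aire ran from WT mTEChi (1184 ± 75.7 CPM, SD, n = 3) and KO mTEChi (677 ± 38.0) down to WT cTEC (49.8 ± 24.1), KO mTEClo (39.3 ± 15.2) and WT mTEClo (37.6 ± 18.8), which overlapped, and to KO cTEC (17.3 ± 5.38). In KO mice Aire was 2.27-fold higher in mTEClo than in cTEC (log2 fold change 1.18, SE 0.34, adjusted p = 0.00856), a call lost without KO mTEClo replicate 4 (0.86, 0.0682) or KO cTEC replicate 6 (0.96, 0.0554). For that pair of KO groups 3 of 9 members were higher and 0 lower, against 37% of all genes (21.2% higher and 15.8% lower), and for KO mTEChi against KO cTEC 4 were higher and 1 lower, against 62.4% (34% higher and 28.4% lower). Fezf2 kept 1 order in both genotypes: 569 ± 25.4 and 457 ± 30.9 CPM in WT and KO mTEChi, 183 ± 9.13 and 134 ± 7.48 in mTEClo, and 102 ± 17.3 and 57.4 ± 15.1 in cTEC, where only the mTEChi pair did not pass. Sirt1 stood at 314 ± 40.3 and 137 ± 17.1 CPM in WT and KO mTEChi, and the other 4 groups lay between 30.1 and 40.3 CPM with no tested pair passing. The mouse pool block added Top1 in KO mTEChi as lower than in KO mTEClo (-0.31, adjusted p = 0.0480) and in KO cTEC (-0.30, 0.0426), and Top2b as higher in KO mTEClo than in KO cTEC (0.28, 0.0261).

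Over the 18 libraries, the genes most like Aire by Pearson correlation of log2(CPM + 1), among 12395 ranked, were Blk (r = 0.991), Grap (0.988), Stkld1 (0.987), Grin2c (0.987) and Ip6k3 (0.987). Blk encodes a Src family kinase of B cells, and averaged 21.2 CPM in WT mTEChi, 15.1 CPM in KO mTEChi and 0.293 to 1.29 CPM in the other 4 groups. B cell markers (6 genes) summed to 51.8 to 58.7 CPM in WT mTEChi and 35.3 to 48.2 CPM in KO. The part of B cells in the Blk reads was not tested. The genes most like Fezf2 were Otulin (0.994), Dio1 (0.991), Cxcl9 (0.986), Ctss (0.985) and C1qtnf6 (0.982). Dio1, a deiodinase that activates thyroid hormone, averaged 589 CPM in WT mTEChi and 53.7 CPM in KO cTEC, and Otulin, a deubiquitinase of linear ubiquitin chains, 343 and 69.5 CPM. Among the members, Aire correlated with Sirt1 at 0.958 and with Fezf2 at 0.933, and Fezf2 with Sirt1 at 0.903. These correlations describe libraries that fall into groups by sorted subset and genotype, and they carry no test.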

How the data were processed

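RNA was measured by SMART-Seq low-input cDNA amplification and Nextera XT libraries on an Illumina NextSeq, per the labels' protocols. Libraries of this kind do not mark strand. The deposited values are raw read counts by gene and library. The authors counted with featureCounts against mm10, per the submitters' processing notes. The aligner and settings are not given in the sources used here. The 18 single files were identical to the series table. Of 27179 genes, 1312 had no symbol, and 35 of these were named from RefSeq (GRCm38.p6), which also gave the start sites. Totals were 3554089 to 20054360 counts per library, and the fewest reads for any member were 132.

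Counts were fitted with edgeR 4.0.16 in R 4.3.3: filterByExpr with a minimum count of 10 (19364 genes kept), TMM scaling, 6 group means, 12 residual degrees of freedom, glmQLFTest and Benjamini-Hochberg adjustment over all genes tested, threshold 0.05. CPM are counts per 1000000 of the TMM-scaled total, and SE and 95% intervals come from the test. On simulated counts of 18669 genes for KO against WT in mTEChi, 80% of genes changed by 1 on the log2 scale and 100% of those changed by 2 were called. There were 7 false calls. Only 100 genes were changed at each size, all with a mean above 5 CPM. Each gene started from the same level in all groups, whereas 36.4% of genes passed in the data. Smaller changes, such as those of most members, were not simulated. WT and KO pools are separate groups of mice, and the p-values rest on a spread between libraries estimated over all 6 groups. The main fit does not use the pool that subsets of 1 genotype share. Its p-values for differences between subsets, and between KO effects, therefore ignore that pairing. The labels give same-numbered libraries the same mouse pool. Deviations from group means correlated at -0.066 to 0.509 (median 0.144, 18 pairs) within pools and -0.455 to 0.178 (median -0.082, 36 pairs) between pools. The deviations in a group sum to 0 for each gene, which ties the values between pools to those within. The values between pools are therefore no separate baseline. WT and KO pools share no mice, and days of sorting or sequencing were not given, so a batch cannot be told apart from genotype.

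Alternatives were RLE scaling, library totals alone, no filter, DESeq2 1.42.0, only the compared groups, the pool as a block, and each library left out. Named genes are the 9 members, Kat7, the 5 genes most like Aire and Fezf2 among those with a mean of at least 5 CPM, predicted genes left out, and genes from each list with the smallest adjusted p (up to 4, of which the text gives a selection). Lyz2, Rn45s and Dnmt3l, and the Aire to Fezf2 ratio, were added after the values were seen. The members and lists were chosen with earlier results of these data known. Comparisons that share a group, such as the WT mTEChi libraries, are not independent.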

Additional observations from a re-analysis of the deposited data

Results flagged for a closer look

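For 3 members the effect of Kat7 loss differed between subsets by a test of the difference (edgeR). The effect on Sirt1 was lower in mTEChi than in mTEClo by -0.85 (log2, SE 0.19, adjusted p = 0.00488) and than in cTEC by -0.89 (SE 0.19, adjusted p = 0.00134). Both differences kept their call under every alternative run. The effect on Top2b in mTEChi exceeded that in cTEC by 0.69 (SE 0.17, adjusted p = 0.00521), the levels rising from 92.2 to 119 CPM in mTEChi and falling from 154 to 124 CPM in cTEC. The effect on Aire in mTEClo exceeded that in cTEC by 1.60 (SE 0.47, adjusted p = 0.0167), with 37.6 and 39.3 CPM in WT and KO mTEClo and 49.8 and 17.3 CPM in WT and KO cTEC. The Top2b call was kept under every alternative. That of Aire was lost without KO mTEClo replicate 4 (1.28, adjusted p = 0.0597). Without WT cTEC replicate 3 the Aire difference was 1.16 (adjusted p = 0.0456). Reasons for these differences were not tested.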

How the results depend on the processing

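Of 1431 alternative values for the members, 1317 stayed on their side of the threshold (70 of these, all uncalled, changed sign), 53 lost a call, 61 gained one, and no called value reversed its direction. Counts of members called moved by over 1.5 times in these cases. For KO against WT in mTEClo (2 called), DESeq2, RLE scaling and only the compared groups each called 4, and leaving out 1 library gave 0 to 2. For KO against WT in mTEChi (5 called), leaving out 1 library gave 2 to 4. For mTEClo against cTEC in WT (3 called), only the compared groups called 1, and leaving out 1 library gave 1 to 3. For the difference of KO effects between mTEChi and mTEClo (1 called), only the compared groups called 2. Between mTEChi and cTEC (2 called), DESeq2, library totals alone and no filter each called 4, and leaving out 1 library gave 2 to 4. Between mTEClo and cTEC (1 called), DESeq2, RLE scaling, library totals alone and the mouse pool as a replicate block each called 3, no filter and only the compared groups called 2, and leaving out 1 library gave 1 to 3. The causes were not tested. The block changed no other call of a member than those given with the results. With library totals alone, the median of all genes moved from -0.02 to -0.14 for KO against WT in cTEC and from 0.05 to 0.17 for the difference of KO effects between mTEClo and cTEC, where the share of higher genes among those called went from 63.3% to 75.6%.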
